A study of Mus musculus with 1 sample.

Results

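Lhx6 and Sst interneurons of the newborn mouse cortex were picked out of a single-cell RNA sequencing (sc-RNA Seq) library by their marker transcripts, and 227 of the 11062 cell barcodes in the library met the rule. A barcode had to show at least 1000 detected genes (9018 barcodes), at least 2 UMIs of Gad1 and Gad2 together (607 barcodes), at least 2 UMIs of Lhx6, Sst, Nxph1 and Maf together (292 barcodes), more UMIs of these 4 markers than of Adarb2, Prox1 and Sp8 (229 barcodes), and 0 UMIs of Isl1 and Ebf1 (227 barcodes). A UMI, or unique molecular identifier, marks 1 captured transcript, so that PCR copies are counted once. The library came from the cerebral cortex of wild-type (WT) C57BL/6 mice at P0, the day of birth, and its title calls the tissue telencephalic. The labels name no transgene or treatment for this sample, and how many animals went into the cell suspension is not given in the sources used here. The design text also names SERPINA3f/+;Nestin-Cre mice and triplicate samples, which were not analysed here.

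Cortical interneurons of the Lhx6 lineage are born outside the cortex, in the medial ganglionic eminence, and migrate tangentially into it before birth. In the eminence the homeodomain factor Nkx2-1 switches on Lhx6, and Lhx6 is needed for Sox6, Satb1 and the later division into somatostatin and parvalbumin interneurons. Somatostatin is made early, whereas parvalbumin appears only after birth. Interneurons from the caudal ganglionic eminence carry Adarb2, Prox1 and Sp8 instead, and Isl1 and Ebf1 mark the striatal lineage.

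The library held 90346034 UMIs, and its cells a median of 7196.5 UMIs. With a single library no replicate error could be given and no test was possible. Levels are in CPM, the UMIs of a gene summed over the cells of a group, per 1000000 UMIs of that group without mitochondrial genes. Brackets after a level or a ratio hold 95% intervals, exact Poisson for levels, exact conditional binomial for ratios and exact Clopper-Pearson for shares. They cover counting error only. The interneurons were set beside the 380 other barcodes with at least 2 Gad1 and Gad2 UMIs ("other Gad cells"). These comprised 215 with at least 2 UMIs of Adarb2, Prox1 and Sp8 that outnumbered the 4 markers ("Adarb2-group cells"), 19 with Isl1 or Ebf1, and 146 remaining Gad cells. The excitatory comparison was made of 6894 barcodes with at least 2 UMIs of Neurod2 and Neurod6 and 0 of Gad1 and Gad2 ("Neurod cells").

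The 227 interneurons were 37.4% (33.5 to 41.4) of the 607 Gad1 and Gad2 barcodes and 2.52% (2.204 to 2.862) of the barcodes with enough genes. They held a lowest, median and highest of 1517, 7788 and 46968 UMIs, beside medians of 6553 in other Gad cells, 5643 in Adarb2-group cells and 9054 in Neurod cells. Shares of captured barcodes can differ from shares in the tissue.

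The interneurons were chosen by the values of 11 genes, so these values are given as a description. Lhx6, the factor that defines the lineage, had a UMI in 192 of the 227 cells (84.6%), with a lowest, median and highest count of 0, 2 and 14. Sst, the somatostatin gene, had a UMI in 99 cells (43.6%), with counts of 0, 0 and 116. Nxph1, a secreted ligand of neurexins, was found in 202 cells and Maf, a leucine zipper factor of this lineage, in 205. Most cells therefore carried several of the markers: 76 cells had a UMI of all 4, 105 of 3, 33 of 2 and 13 of 1. The label did not hold for every cell, since 35 cells had 0 Lhx6 UMIs and 26 had neither Lhx6 nor Sst.

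The levels of the 4 markers were 288 (266 to 312) CPM for Lhx6, 764 (727 to 802) CPM for Sst, 492 (463 to 523) CPM for Nxph1 and 506 (476 to 537) CPM for Maf. In other Gad cells they were 6.12, 2.33, 10.8 and 86.9 CPM in the same order. Maf was thus the marker most often present outside the group, with a UMI in 28.4% of other Gad cells and a level of 151 CPM in Adarb2-group cells. Neurod cells, which should lack Lhx6, showed an Lhx6 UMI in 2.44% of barcodes at a median of 9054 UMIs, and an Sst UMI in 3.25%. When each cell was thinned to 2000 UMIs, Lhx6 was left in 51.8% of 224 interneurons, 1.90% of 368 other Gad cells and 0.537% of 6699 Neurod cells. The thinned shares of Sst were 31.7%, 0.543% and 0.836%.

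**Figure D1:**
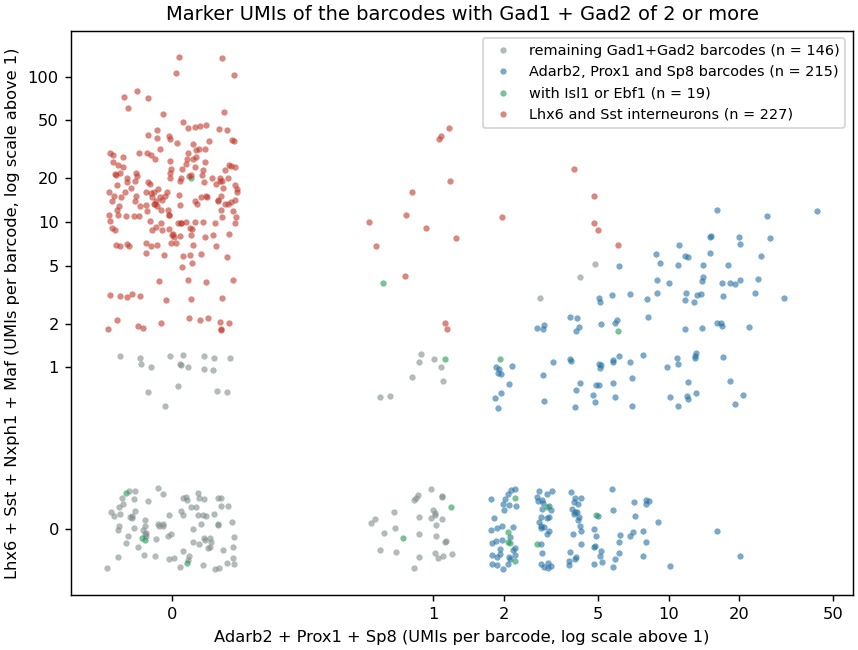
Each point is 1 of the 607 barcodes with at least 2 Gad1 and Gad2 UMIs; the x axis gives UMIs of Adarb2, Prox1 and Sp8 and the y axis UMIs of Lhx6, Sst, Nxph1 and Maf, both logarithmic above 1 and with a small random shift. The 227 interneurons fill the upper left, where 160 of them hold 10 or more marker UMIs, and the 215 Adarb2-group cells lie to the right.

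On its inner side the border of the group held fewer interneurons on the marker axis than on the Gad axis. Barcodes with 1 UMI just outside it were counted by unlike conditions on the marker and Gad axes, so their numbers cannot be compared. Just inside it were 14 interneurons with a marker sum of 2 and 8 with a sum of 3, while 160 had a sum of 10 or more. Just outside it were 78 other Gad cells with a marker sum of 1, and 237 had a sum of 0. These were counted whether or not they met the conditions on Adarb2, Prox1, Sp8, Isl1 and Ebf1. A further 63 barcodes had 2 or more marker UMIs but as many or more of Adarb2, Prox1 and Sp8, and 19 interneurons had at least 1 UMI of these genes. On the Gad side, 52 interneurons had just 2 UMIs of Gad1 and Gad2, and 77 barcodes with 1 such UMI and 167 with 0 met every other condition.

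The start of the Sst gene is shown because the somatostatin promoter is the classical example of a gene switched on through cAMP, and that of Cort, which encodes the related peptide cortistatin, because Cort was among the genes that set these interneurons apart. Both windows are the 250 bases before the start of the gene in RefSeq on GRCm38.p6, read 5′ to 3′ on the strand of the gene, chr16:23890845-23891094 (minus strand) for Sst and chr4:149126764-149127013 (minus strand) for Cort. Capitals mark the cAMP response element TGACGTCA in Sst and the core recognised by many homeodomain factors, TAATTA, in Cort.
Sst: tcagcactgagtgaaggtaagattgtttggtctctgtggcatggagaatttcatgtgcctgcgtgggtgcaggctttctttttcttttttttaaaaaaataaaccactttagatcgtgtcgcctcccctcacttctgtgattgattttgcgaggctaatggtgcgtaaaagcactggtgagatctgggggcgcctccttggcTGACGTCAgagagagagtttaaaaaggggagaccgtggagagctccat
Cort: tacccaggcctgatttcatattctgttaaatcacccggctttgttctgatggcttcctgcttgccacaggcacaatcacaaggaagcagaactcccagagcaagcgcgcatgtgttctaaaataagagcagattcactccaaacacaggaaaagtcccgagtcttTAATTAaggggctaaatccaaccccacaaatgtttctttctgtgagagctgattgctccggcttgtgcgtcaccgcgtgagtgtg
The response element lay 48 to 41 bases before the start of Sst. It was present in 1.55% of the 32851 windows of this length over all genes in the RefSeq table. The homeodomain core lay 85 to 80 bases before the start of Cort and was present in 4.84% of all windows. Both motifs read the same on either strand. Of the 20 leading genes described below, 13 had a window. TAATTA was found for 2 of them (15.4%), Cort and Mgat4c, beside 5.65% of all genes with a window. TGACGTCA was found for 0, beside 1.77% of all genes with a window. A match is a description of the letters and shows no binding.

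Transcripts of excitatory neurons were found together with the interneuron markers in many of these cells. A Neurod2 or Neurod6 UMI was seen in 116 interneurons (51.1%, 44.4 to 57.8) and 2 or more in 69 (30.4%). The share with at least 1 was 57.6% in other Gad cells. Neurod2 stood at 195 (176 to 215) CPM in the interneurons, 287 CPM in other Gad cells and 645 CPM in Neurod cells, and the vesicular glutamate transporter gene Slc17a6 at 22.1, 37.6 and 55.7 CPM. These UMIs moved with depth: the 69 interneurons with 2 or more held a median of 13416 UMIs and the 111 with 0 a median of 6373. In the 111 cells without Neurod2 and Neurod6 UMIs Slc17a6 stood at 6.37 CPM, whereas Lhx6 was at 404 CPM and Sst at 1172 CPM, above their levels in the whole group. Whether such barcodes hold more than 1 cell was not tested. Levels in the 111 cells are therefore given below where they moved a result.

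Of the other cell types that the suspension could hold, oligodendrocyte precursor, microglial, endothelial and red blood cell lists had 0 of their 15 genes at a level high enough to compare with other Gad cells. Among the 5 radial glia and astrocyte genes, 19 interneurons had an Slc1a3 UMI and 9 an Aldoc UMI. Fabp7, a fatty acid binding protein of radial glia, had a UMI in 39 interneurons, and 1 cell held 146 of its 222 UMIs. Of the 5 genes 3 were comparable with other Gad cells, counted as below. Fabp7 and Vim were at least 2-fold lower in the interneurons and 0 were higher, beside 2.76% of all genes lower. A UMI of the dividing-cell genes Mki67, Top2a, Cdk1, Ccnb1 or Ccna2 was found in 7 interneurons (3.08%, 1.25 to 6.25) and in 21.3% of other Gad cells, 17.2% of Adarb2-group cells and 5.93% of Neurod cells.

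The main comparison asked how the Lhx6 and Sst interneurons differed from the other Gad cells of the same library. The glutamate receptor genes Grin3a and Gria1, the peptide gene Cort and the calcium channel gene Cacna2d2 were among the 20 genes that lay furthest above, and cell division genes made up most of the 10 that lay furthest below. Among 7059 genes with a mean of the 2 groups of at least 20 CPM, 192 (2.72%) were at least 2-fold higher in the interneurons and 195 (2.76%) at least 2-fold lower. For this count 10 CPM was added to both sides, and the 11 genes of the rule were left out together with Neurod2 and Neurod6. The median log2 ratio over the 7059 genes was -0.0038.

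**Figure D2:**
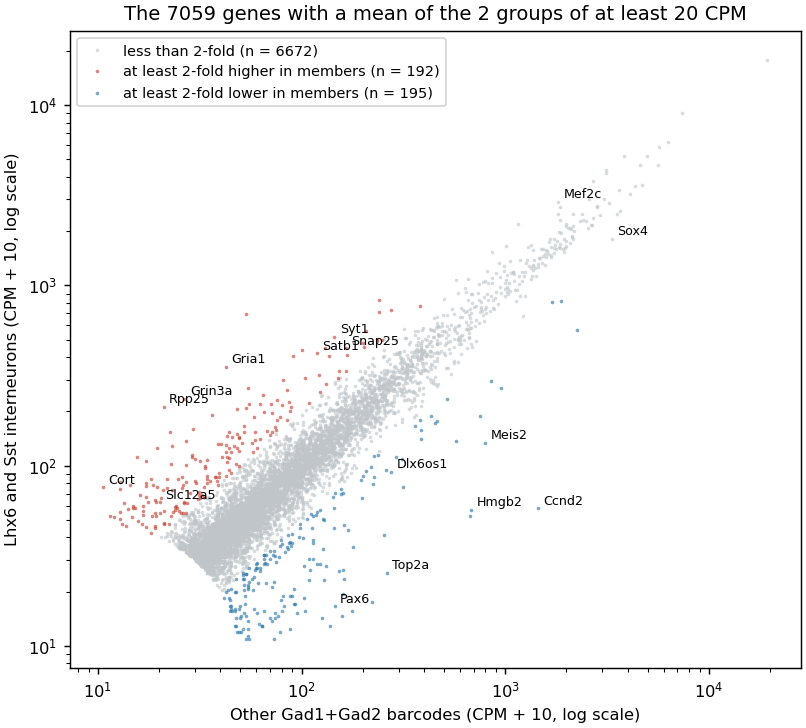
Each point is 1 of the 7059 compared genes, with its level in the 380 other Gad cells on the x axis and in the 227 interneurons on the y axis (CPM with 10 added, log scales). The 192 genes at least 2-fold higher are red and the 195 at least 2-fold lower blue; Gria1 and Rpp25 lie well above the diagonal, and Ccnd2, Hmgb2 and Top2a well below it.

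Several transcription factors of the lineage were higher. Of the 7 comparable medial ganglionic eminence factors outside the rule, 4 were at least 2-fold higher and 0 lower, beside 2.72% and 2.76% of all genes. Among these were Satb1, a chromatin organiser needed for somatostatin interneurons to mature (410.3, 384 to 438, against 109 CPM), Sox6, which acts after Lhx6 (141, 125 to 158, against 38.5 CPM), and Npas1, a basic helix-loop-helix factor (237, 217 to 259, against 54.5 CPM). Mef2c and Zeb2 were nearer to the other cells, at ratios of 1.60 (1.54 to 1.66) and 1.53 (1.44 to 1.63). Etv1 went the other way, at 48.0 against 71.2 CPM. The teashirt-type zinc finger gene Tshz3 stood at 258 (237 to 281) against 44.9 CPM.

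Factors shared by forebrain GABAergic neurons were present at lower or similar levels. Of 8 comparable genes 0 were at least 2-fold higher and 1 lower, beside 2.72% higher and 2.76% lower over all genes, with a median log2 ratio of -0.49. Dlx1 was at 180.2 (163 to 199) CPM against 357 in other Gad cells, Dlx2 at 104 against 170.0 and Dlx6os1, a noncoding RNA of the Dlx5 and Dlx6 locus, at 82.3 (70.6 to 95.5) against 266. Dlx6os1 is transcribed from the opposite strand of Dlx6, and whether counting used strand is not given in the sources used here. Nkx2-1 and Lhx8, which act early in the eminence and stay on in striatal and cholinergic cells, had UMIs in 8 and 3 interneurons and 0 in the 380 other Gad cells. Each of these cells also had an Lhx6 UMI. Nkx2-1 was at 7.53 (4.30 to 12.2) CPM, at least 8.60-fold above the level of 3 UMIs over all other Gad cells. The acetylcholine synthesis gene Chat had 0 UMIs in the interneurons, which allows up to 1.41 CPM at 3 counts.

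The lists for caudal eminence and striatal lineages held more lower than higher genes. The caudal ganglionic eminence list had 3 of 7 comparable genes at least 2-fold lower, 1 higher and 3 neither, beside 2.72% higher and 2.76% lower over all genes. The lower genes were the serotonin receptor gene Htr3a (3.29 against 51.9 CPM), the peptide gene Vip (2.82 against 37.3) and the chemokine gene Cxcl14 (15.1 against 43.5). In the interneurons 25 of the 32 Cxcl14 UMIs lay in 1 cell. Npas3 was the higher gene, at 216 (197 to 237) against 77.3 CPM. Among 5 comparable striatal-type genes 4 were at least 2-fold lower, beside the same 2.76%, among them Meis2, a homeodomain factor of striatal and excitatory neurons. It stood at 124 (109.7 to 140.2) CPM against 790.4 CPM, 6.36-fold lower (5.61 to 7.25), and at 64.98 CPM in the 111 interneurons without Neurod UMIs. Foxp1 was likewise at 225 CPM in the whole group and 80.3 CPM in those 111 cells. The matching levels in other Gad cells without Neurod UMIs are not given here. Only 19 other Gad cells were grouped by Isl1 or Ebf1. Meis2, Pbx3 and Tshz1 were also at least 2-fold lower against Adarb2-group cells, which exclude those 19. That was 3 of 5 comparable striatal-type genes, with 0 higher, beside 2.35% lower over all genes. Which of the other Gad cells carry the difference was not tested.

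Gad1 and Gad2 chose the cells of both groups and are not compared. Of 5 other comparable genes of GABA synthesis and transport, 0 were at least 2-fold higher and 0 lower, beside 2.72% higher and 2.76% lower over all genes. Slc32a1, which loads GABA into vesicles, came close at 119 (105 to 135) against 60.1 CPM, a ratio of 1.98 (1.64 to 2.39). In Neurod cells Slc32a1 was at 0.828 CPM.

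Glutamate receptor genes had the largest share of higher genes among the 25 lists. Of 16 comparable genes, 11 were at least 2-fold higher and 0 lower, against 2.72% of all genes, with a median log2 ratio of 1.29. Gria1, the GluA1 subunit of AMPA receptors, had counts of 0, 3 and 17 per cell and a UMI in 200 interneurons. It stood at 343 (319 to 369) CPM against 32.7 (26.9 to 39.3) CPM, a ratio of 10.5 (8.60 to 12.9), and was left in 48.2% of interneurons, 6.52% of other Gad cells and 4.60% of Neurod cells after thinning. The other AMPA genes were not uniform: Gria3 (71.5 against 17.2 CPM) and Gria4 (109 against 32.4) were higher, but Gria2, whose subunit keeps calcium out, was at 909 (869 to 950.1) against 1006 CPM. The list held a pair of TARP genes, which encode partners of AMPA receptors, with Cacng2 at 202 against 79.0 CPM and Cacng3 at 49.4 against 4.96.

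Among NMDA receptor genes Grin3a, which encodes the GluN3A subunit of juvenile synapses, differed most. Its counts were 0, 0 and 19 per cell, and its level was 225 (206 to 247) CPM against 16.6 (12.6 to 21.5), a ratio of 13.6 (10.3 to 18.2). A median of 0 beside a highest count of 19 shows that Grin3a was uneven over the interneurons. The obligatory subunit gene Grin1 (76.2 against 28.0 CPM) and Grin2a (52.2 against 17.5) were also at least 2-fold higher, while Grin2b, the main partner at this age, had a ratio of 1.48 (1.34 to 1.62). Kainate receptor genes followed the same direction, with Grik1 at 69.6 (58.9 to 81.8) against 7.29 CPM and Grik3 at 60.7 against 18.4. Neto1, whose protein accompanies kainate and NMDA receptors, was at 179.8 (162 to 199) against 26.2 CPM. Of the metabotropic receptors, Grm3 had a ratio of 7.72 (5.91 to 10.2) and Grm5 of 3.42 (2.89 to 4.05). Dlgap2, a scaffold of excitatory synapses, stood at 96.5 (83.7 to 111) against 7.29 CPM.

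**Figure D3:**
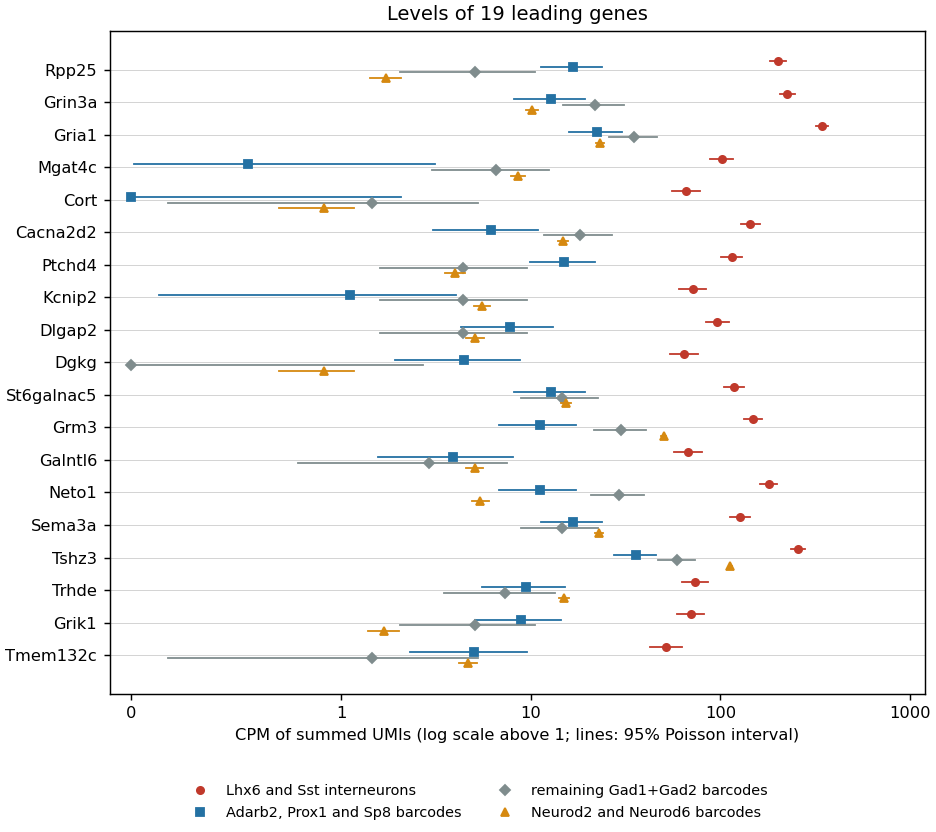
Levels of 19 of the 20 genes that lay furthest above other Gad cells, in the interneurons (circles), Adarb2-group cells (squares), remaining Gad cells (diamonds) and Neurod cells (triangles); the x axis is CPM, logarithmic above 1, and lines are 95% Poisson intervals. For these 19 genes the circle lies to the right of the other symbols and its line meets none of theirs, as for Gria1 at 343 CPM and Tmem132c at 51.8 CPM. Since the genes were chosen by their difference from other Gad cells, the gap to Gad cells is no separate support.

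The remaining leading genes were of several kinds. Rpp25, a protein subunit of ribonuclease P, had counts of 0, 1 and 10 per cell and stood at 202 (183 to 222) against 11.1 (7.84 to 15.2) CPM. Cacna2d2, an auxiliary calcium channel subunit, was at 144 (128 to 161) against 12.5 CPM, and Kcnip2, which binds Kv4 potassium channels, at 71.5 (60.6 to 83.8) against 2.92. Sema3a, a secreted guidance cue, stood at 127 (112 to 143) against 17.2 CPM. Mgat4c stood at 102 against 5.54 CPM, the sialyltransferase gene St6galnac5 at 118 against 13.1, and Galntl6 at 67.8 against 4.37. Dgkg, a diacylglycerol kinase, had a UMI in 92 interneurons and 0 in remaining Gad cells, at least 29.5-fold above the level of 3 UMIs over that group. Against all other Gad cells its log2 ratio, with 10 CPM added, was 2.53. Trhde, which degrades thyrotropin-releasing hormone, was at 73.9 against 8.17 CPM. The membrane protein genes Ptchd4 (115 against 9.62 CPM) and Tmem132c (51.8 against 3.5) were also among the 20.

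GABA receptors and chloride transporters gave 3 of 11 comparable genes at least 2-fold higher, beside 2.72% of all genes, and 0 lower. The receptor subunit genes were Gabra3 (49.4, 40.4 to 59.8, against 6.71 CPM) and Gabrg3 (74.8, 63.6 to 87.4, against 14.9 CPM). Slc12a5, the exporter KCC2 that lowers chloride in maturing neurons, had a UMI in 78 interneurons and stood at 52.7 (43.4 to 63.4) against 10.2 CPM. The importer gene Slc12a2, or NKCC1, had a ratio of 0.825 (0.605 to 1.12).

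Of 20 comparable ion channel genes 4 were at least 2-fold higher, beside 2.72% of all genes, and 0 lower. Kcnc2, a Kv3 channel of fast-firing interneurons, was at 63.1 (52.8 to 74.7) against 10.8 CPM, but its relative Kcnc1 was at 89.9 against 131. Cacna1a, the pore of P/Q-type calcium channels, was at 73.9 against 24.2 CPM, and Cacna2d3 at 67.8 against 28.9. The sodium channel gene Scn1a, which is known from interneurons, had a ratio of 1.99 (1.43 to 2.77).

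Of 18 comparable presynaptic genes 4 were at least 2-fold higher and 0 lower, beside 2.72% of all genes higher, and 14 were neither, with a median log2 ratio of 0.73. Syt1, the calcium sensor of release, was at 510.1 (480.2 to 541) against 135 CPM and Snap25, a SNARE protein, at 437 (409 to 466) against 155 CPM. The others were Pclo, of the active zone, and the synapsin gene Syn2. Among 18 synaptic adhesion genes 4 were at least 2-fold higher, beside the same 2.72%, and 0 lower. Elfn1, which sets the release properties of excitatory synapses onto somatostatin cells, was at 56.9 (47.2 to 68.0) against 7.29 CPM and Cntnap2 at 72.0 (61.0 to 84.3) against 19.8. Nxph2, a relative of Nxph1, stayed below the level for comparison but had a UMI in 52 interneurons and 1 UMI in all other Gad cells, a ratio of 127 (22.2 to 5097). Of 14 cadherin genes 3 were at least 2-fold higher, beside the same 2.72%, Cdh9 (45.2, 36.6 to 55.2, against 2.92 CPM), Pcdh19 (144, 128 to 161, against 33.8) and Pcdh17 (147 against 65.3).

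**Figure D4:**
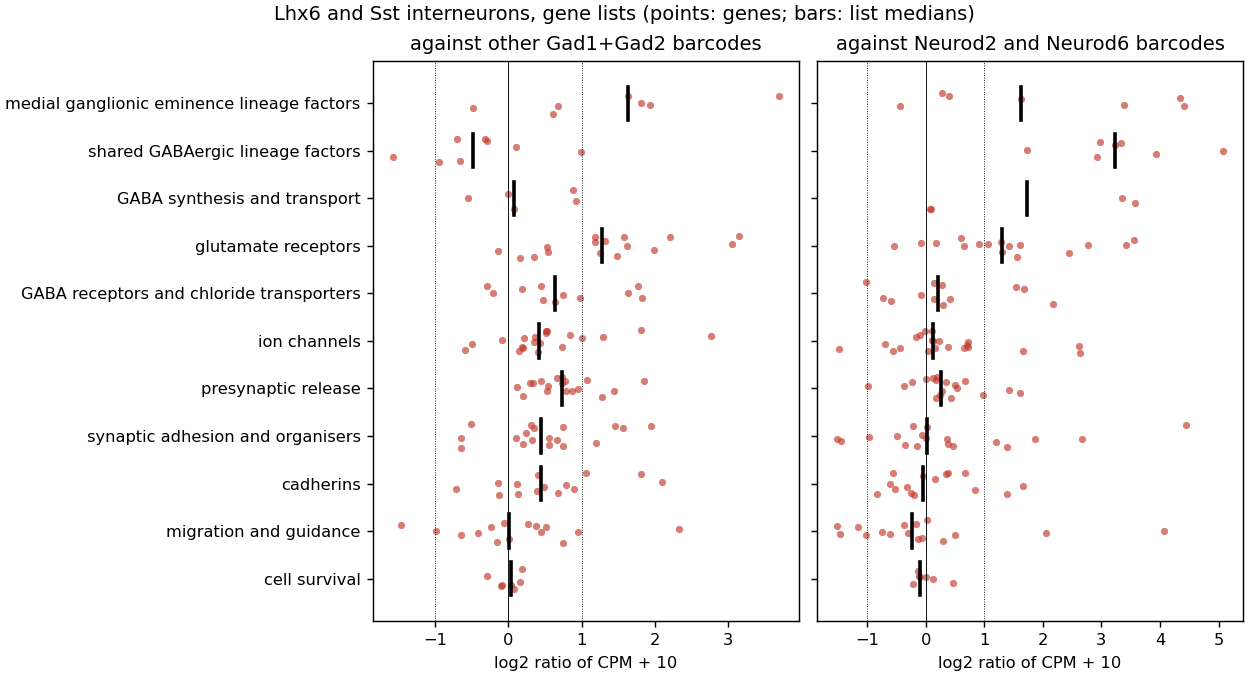
Log2 ratios of the comparable genes of 11 lists (points) and their medians (bars), for the interneurons against other Gad cells (left) and against Neurod cells (right), with 10 CPM added; dotted lines mark 2-fold. Against other Gad cells the glutamate receptor median is 1.29 and the cell survival median 0.04, and against Neurod cells the shared GABAergic factors reach 3.23.

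Peptide and subtype genes were few. Of 6 comparable neuropeptide genes, Cort was at least 2-fold higher, and Pnoc and Vip were lower, beside 2.72% higher and 2.76% lower over all genes. Cort had a UMI in 48 interneurons (21.1%) with a highest count of 16, and 2 UMIs in all other Gad cells. Its level was 65.9 (55.4 to 77.7) against 0.583 (0.0706 to 2.11) CPM, a ratio of 113 (30.7 to 942), and in Adarb2-group cells, with 0 UMIs, it was at least 39.4-fold below the interneurons at 3 counts. Npy, which many somatostatin cells also make, had counts of 0, 0 and 92 per cell and stood at 244 (223 to 266) CPM, below the 409 CPM of Neurod cells, and at 167 CPM in the 111 interneurons without Neurod UMIs. Calb1, the calcium buffer calbindin, was at 36.2 (28.6 to 45.3) against 3.79 CPM and Reln, the secreted protein reelin, at 176 (158 to 194) against 48.4. Pvalb had 0 UMIs in the 2125167 UMIs of the interneurons, which allows up to 1.41 CPM. Markers of adult somatostatin subtypes were sparse: Chodl had a UMI in 2 cells, Hpse in 1, Myh8 in 2 and Chrna2 in 0 of 227, which allows up to 1.32% of cells with a UMI and sets no limit on cells that express the gene. Crhbp, which binds corticotropin-releasing hormone, had 15 UMIs in 8 interneurons and 0 in other Gad cells, at least 8.07-fold above the level of 3 UMIs there.

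Genes of migration, survival and activity were described from fixed lists as well. Of 15 comparable migration genes 1 was at least 2-fold higher (Sema3a) and 1 lower, beside the 2.72% and 2.76% of all genes. The lower gene was Sema3c, at 12.2 against 51.3 CPM. Ackr3, a chemokine scavenger that works with Cxcr4 in migrating interneurons, lay below the level for comparison but had 31.5 (24.4 to 40.04) CPM against 0.875, a ratio of 36.0 (11.8 to 179). Cxcr4 itself was at 22.6 (16.7 to 29.9) against 12.5 CPM, and in Adarb2-group cells at 22.3 CPM. Erbb4, the neuregulin receptor, stood at 193 (175 to 213) against 95.1 CPM. The 7 comparable survival genes gave 0 at least 2-fold higher and 0 lower, beside the same shares, and Bax, which drives the loss of surplus interneurons after birth, was at 248 (227 to 270.1) against 241 CPM. Among 7 immediate early genes Fos (253, 232 to 275, against 74.95 CPM), Fosb and Junb were at least 2-fold higher and Ier2 was lower, beside 2.72% higher and 2.76% lower over all genes. These genes are also known to respond to tissue dissociation, and its part was not tested.

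A list of progenitor genes and genes tied to the subject of the study had 3 of 6 comparable genes at least 2-fold lower and 0 higher, beside 2.72% higher and 2.76% lower over all genes. Dividing cells moved with this difference, as 21.3% of other Gad cells and 3.08% of interneurons held a UMI of the 5 dividing-cell genes. Without such cells among the others the log2 ratio of Pax6, with 10 CPM added, was -2.74 instead of -3.13, and for Nes and Notch1 the part of dividing cells was not tested. Pax6 had a UMI in 8 of them and stood at 6.59 (3.60 to 11.1) against 136 CPM, 20.6-fold lower (12.1 to 38.0). Nes (6.59 against 34.4 CPM) and Notch1 (5.65 against 55.1) were lower as well. Sox2, by contrast, was found in 119 interneurons at 95.1 (82.4 to 109) CPM, beside 150.2 CPM in other Gad cells and 10.7 CPM in Neurod cells. Glo1, the glyoxalase of methylglyoxal breakdown, was at 48.0 (39.1 to 58.3) against 49.9 CPM, a ratio of 0.962 (0.746 to 1.24). Serpina3n, a mouse relative of SERPINA3, had 0 UMIs.

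The genes furthest below other Gad cells were largely those of dividing cells. Ccnd2, cyclin D2, had a UMI in 24 interneurons and stood at 48.0 (39.1 to 58.3) against 1435 CPM, 29.9-fold lower (24.6 to 36.7). The others were the histone genes Hist1h2ap (42.3 against 664 CPM) and Hist1h1b (7.53 against 213), Hmgb2, Cenpf, Pclaf, Ube2c and Top2a, together with Pax6 and AC126673.2, an unnamed transcript (4.23 against 116 CPM). Top2a stood at 15.5 against 253 CPM, and 32 of its 33 UMIs in the interneurons lay in 1 cell. When other Gad cells with a UMI of 5 dividing-cell genes were left out, the number of genes at least 2-fold lower was 97 instead of 195, and 85 of these were shared. The number at least 2-fold higher was 162 instead of 192, and 157 of these were shared. Hist1h1b, Cenpf and Top2a then had log2 ratios above 0 (0.41, 0.34 and 1.35). By construction this setting removes every Top2a UMI from the other Gad cells. It kept the 7 interneurons with a UMI of the 5 genes, so the turn of Hist1h1b, Cenpf and Top2a cannot be read as a difference between the groups.

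Leaving out every cell with a Neurod2 or Neurod6 UMI, from both sides, gave larger counts. The interneurons then numbered 111, and 530 genes were at least 2-fold higher than in other Gad cells and 434 lower, with 190 of the 192 and 183 of the 195 among them. Both sides held fewer cells in this setting, which raises counting error, and its part in the larger counts was not tested.

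Adarb2-group cells were the other large group of Gad cells chosen by markers, and 17.2% of them held a UMI of the 5 dividing-cell genes. Whether all of them are interneurons was not tested. Against them, 210 of 7011 genes (3%) were at least 2-fold higher in the Lhx6 and Sst interneurons and 165 (2.35%) lower. Without Neurod UMIs the counts were 581 and 426, and with at least 5 Gad1 and Gad2 UMIs they were 391 and 320, both with fewer cells. When Adarb2-group cells with a UMI of the 5 dividing-cell genes were left out, they were 186 and 116. Of the 210 and 165 genes, 181 and 98 were shared with this setting. Some factor genes differed between the groups, in both directions. Of 8 comparable medial ganglionic eminence factors 4 were at least 2-fold higher, 1 lower and 3 neither. Of 8 shared GABAergic factors 0 were higher, 3 lower and 5 neither, beside 3% higher and 2.35% lower over all genes. Satb1 (3.49, 2.998 to 4.07), Sox6 (3.55, 2.74 to 4.67) and Npas1 (2.40, 2.02 to 2.87) had ratios above 2, while St18, which is known from the eminence and pallidum, was at 5.65 against 47.4 CPM, and Dlx1 (180.2 against 489 CPM), Dlx2 and Dlx6os1 were lower by the fold used. Pnoc, the precursor of nociceptin, was at 8.47 against 61.3 CPM and Vip at 2.82 against 71.4. Of 16 glutamate receptor genes 9 were at least 2-fold higher, beside 3% of all genes, and 0 lower, led by Cacng3 (22.2, 8.40 to 82.8), Grin3a (17.6, 11.6 to 28.0) and Gria1 (15.4, 11.2 to 21.7). Of 14 cadherin genes 5 were higher, beside the same 3%, with Cdh13 (3.49, 2.73 to 4.52) and Pcdh7 (2.15, 1.76 to 2.64) in addition to the 3 named above.

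Several genes known from both medial and caudal eminence interneurons were at similar levels in the interneurons and Adarb2-group cells. Nrxn3, a neurexin, had a ratio of 1.01 (0.931 to 1.09), Cxcr4 of 1.01 (0.652 to 1.58) and Erbb4 of 1.15 (0.985 to 1.33), and the glutamate receptor scaffold gene Grip1 of 1.06 (0.888 to 1.27). Cnr1, the cannabinoid receptor, was lower, at 343 (319 to 369) against 662 CPM. Nr2f2, the caudal eminence factor COUP-TFII, was at 127 (112 to 143) against 149.9 CPM and was found in 18.1% of interneurons and 42.3% of Adarb2-group cells, or 11.6% and 24.5% after thinning.

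Against Neurod cells, 203 of 6907 genes (2.94%) were at least 2-fold higher in the interneurons and 136 (1.97%) lower. All 7 comparable factors shared by GABAergic neurons were higher, beside the same 2.94%, with a median log2 ratio of 3.23, and Dlx1 stood at 180.2 against 2.46 CPM. The groups were chosen by Gad1, Gad2, Neurod2 and Neurod6, so the direction of GABAergic and excitatory neuron genes is no separate support. Slc32a1 had a ratio of 144 (107 to 195), Erbb4 of 90.3 (74.6 to 109.8) and Elfn1 of 112 (76.3 to 168). Of 16 glutamate receptor genes 10 were higher, beside 2.94% of all genes, and 0 lower, and Grik1 (41.7, 32.5 to 53.7), Cacng3 (57.6, 41.5 to 80.7), Grin3a (22.2, 19.7 to 24.97) and Gria1 (14.9, 13.6 to 16.2) again had the ratios furthest above 2 on that list. Of 7 immediate early genes 4 were higher, beside the same 2.94%, with Fos at 253 against 47.8 CPM.

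Lower genes in this comparison included 5 of 7 excitatory neuron genes and 4 of 16 migration genes, beside 1.97% of all genes. The migration genes Erbb4 and Sema3a were higher. Of 12 comparable genes of GABA receptors and chloride transporters, 1 was lower, Gabra2. On that list 3 were higher, Gabra3, Gabrg3 and Slc12a5, beside 2.94% of all genes. Nrp1, a semaphorin receptor, was at 30.1 (23.2 to 38.5) against 105 CPM, and Epha4 at 111 (97.3 to 126) against 258. Gabra2 was at 69.2 (58.4 to 81.3) against 149 CPM. In the 111 interneurons without Neurod UMIs these genes were lower still, at 14.0, 52.2 and 21.7 CPM in this order, and the number of lower genes was 263. The 111 cells were picked by lacking the genes that chose the Neurod cells, so this further fall is no separate support.

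The interneurons also differed among themselves in Sst. No Sst UMI was found in 128 cells, 1 to 4 in 31 and 5 or more in 68, with 7 cells at 50 or more. The 10 cells with the most Sst held 697 of the 1624 Sst UMIs (42.9%). The 68 cells with 5 or more had a median of 12213 UMIs in all, and the 128 with 0 had 6212, so that depth moved with Sst. Whether the cells with 0 make no somatostatin was not tested at this depth. Excitatory transcripts were found in both groups, with a Neurod2 or Neurod6 UMI in 51.5% of the 68 and 47.7% of the 128.

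Set against the 128 cells with 0 Sst UMIs, the 68 cells showed 117 of 6934 genes (1.69%) at least 2-fold higher and 62 (0.894%) at least 2-fold lower. Because Sst and the other markers helped to choose the cells, and cells with 0 Sst UMIs could enter only through Lhx6, Nxph1 or Maf, these values describe the group and were not tested. With interneurons of at least 5000 UMIs alone the counts were 120 and 60, of which 106 and 48 were shared, whereas without any Neurod UMI they were 232 and 246, of which 82 and 45 were shared. With at least 5 Gad1 and Gad2 UMIs they were 180 and 171, and 68 of the 117 and 40 of the 62 were shared. These settings all left fewer cells in the groups.

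**Figure D5:**
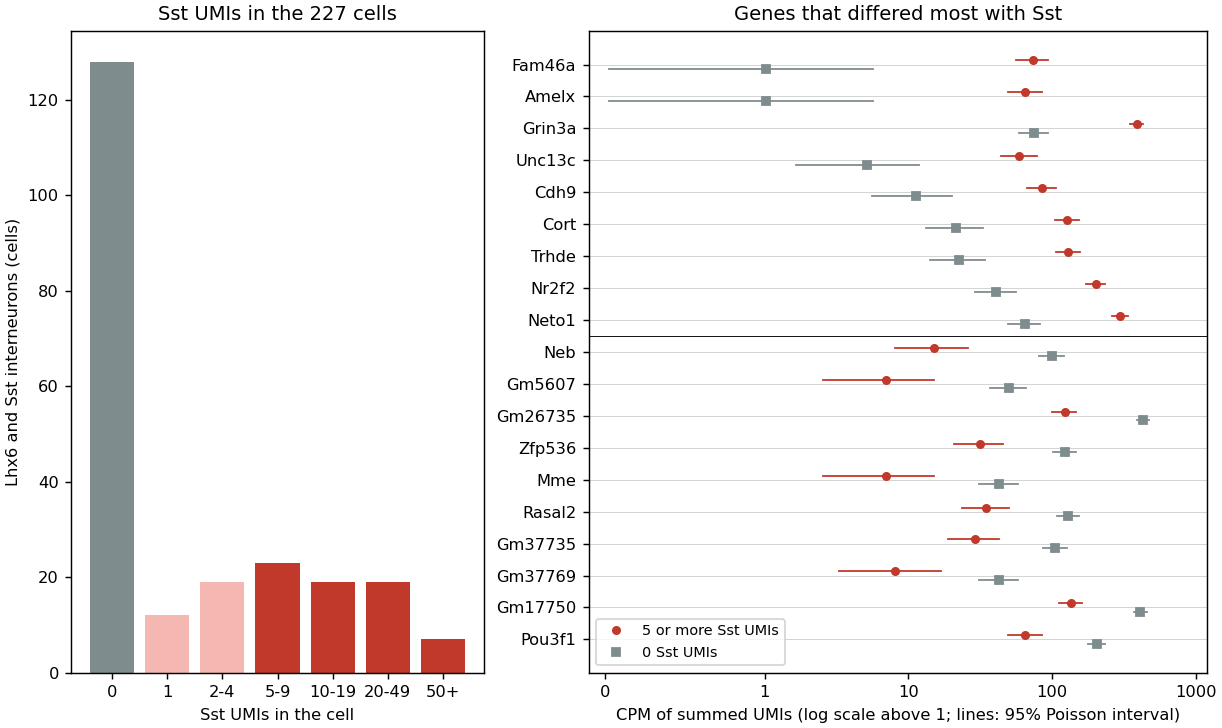
Left, the number of interneurons at each count of Sst UMIs, with 128 at 0 and 68 at 5 or more (dark red). Right, CPM levels of 19 of the 20 genes that lay furthest above or below in the cells with 5 or more Sst UMIs (circles) against those with 0 (squares). Lines are 95% Poisson intervals, and the axis is logarithmic above 1. For these 19 genes the intervals do not meet, but the genes were chosen by this same difference.

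Genes higher with Sst included factors, receptors and the peptide Cort. Grin3a was at 389 (348 to 432) CPM in the cells with 5 or more Sst UMIs and 74.8 (58.6 to 94.1) CPM in those with 0, a ratio of 5.19 (4.02 to 6.79). It was left in 52.9% and 10.4% of them after thinning. Cort followed at 127 (104 to 153) against 21.5 (13.3 to 32.9) CPM, and Nr2f2 at 202 (173 to 235) against 41.0. Nr2f2 was concentrated, as 29 of the 68 cells held a UMI and 4 of the 128. Satb1 (3.21, 2.71 to 3.81) and Npas1 (4.14, 3.25 to 5.31) had ratios above 2, and Sox6 had a ratio of 1.04 (0.808 to 1.33). Reln was at 279 (245 to 317) against 63.5 CPM, Elfn1 at 96.5 (76.9 to 119.7) against 24.6 and Neto1 at 297 (261 to 335) against 64.6.

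Of 18 comparable glutamate receptor genes 6 were at least 2-fold higher with Sst and 0 lower, beside 1.69% and 0.894% of all genes. Grik1, a kainate receptor subunit gene, was at 116 (94.6 to 141) against 29.7 CPM. Gria1 did not share this pattern, at 342 (304 to 383) against 334 CPM. The 3 higher cadherins, of 14 compared and beside the same 1.69%, were Cdh9 (7.53, 3.97 to 15.8), Cdh10 (2.40, 1.65 to 3.54) and Pcdh17 (2.13, 1.63 to 2.79). Unc13c, a vesicle priming factor, was at 59.3 (44.2 to 78.0) against 5.12 CPM and Trhde at 129 (106 to 155) against 22.5.

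A pair of genes of the top 10 rested on few UMIs outside the Sst cells. Fam46a, of a family of poly(A) polymerases, had 63 UMIs in 22 of the 68 cells and 1 UMI in the 128 cells, a ratio of 71.5 (12.4 to 2869). Amelx, the enamel protein gene amelogenin, had 56 UMIs in 7 of the 68 cells and 1 in the 128, but 38 of its 57 UMIs in the whole group came from 1 cell. Amelx lies within Arhgap6 on the opposite strand. Fabp7 and Aldoc, genes of radial glia and astrocytes, were also at least 2-fold higher with Sst, and 146 of 222 and 26 of 36 of their UMIs lay in 1 cell each.

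Genes lower in the cells with 5 or more Sst UMIs included the neuregulin receptor gene Erbb4. It was at 114 (92.5 to 139) against 276 (244 to 311) CPM, a ratio of 0.414 (0.325 to 0.523). A pair of unnamed transcripts that lie within Erbb4 on its strand, Gm37735 (29.1 against 106 CPM) and Gm37769 (8.14 against 43.0), moved with it and may share its reads. Mef2c, a factor needed by parvalbumin interneurons, was at 1915 (1823 to 2009) against 3670.3 (3551 to 3793) CPM, just short of the fold used, with 2128 CPM in the 111 cells without Neurod UMIs and 3912 CPM in Neurod cells. Etv1 was at 24.4 (15.1 to 37.3) against 78.9 CPM. Tac1, the substance P precursor, was at 12.8 (6.39 to 22.9) against 53.3 CPM, and 11 of the 15 interneurons with a Tac1 UMI had 0 Sst UMIs.

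The 10 genes furthest below in the Sst cells were of mixed kinds. Neb, the gene of the muscle protein nebulin, was at 15.1 (8.05 to 25.9) against 99.4 (80.6 to 121) CPM, and at 1.28 CPM in Neurod cells. Mme, the peptidase neprilysin, was at 6.98 against 43.0 CPM, and Zfp536, a zinc finger gene, at 31.4 (20.7 to 45.7) against 123. Rasal2, of the Ras GTPase activating proteins, was at 34.9 against 129 CPM. There were 3 further unnamed transcripts: Gm5607 (6.98 against 50.2 CPM), Gm17750 (135 against 412) and Gm26735 (122 against 432), of which the last overlaps Sox4 on the opposite strand. Pou3f1, a POU factor of cortical projection neurons, was at 65.1 against 205 CPM, but at 571 CPM in Neurod cells and 24.2 CPM in the 111 interneurons without Neurod UMIs. It was also the gene whose direction did not hold, with a log2 ratio of 0.11 when at least 5 Gad1 and Gad2 UMIs were required.

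Co-detection in single cells showed how these genes fell together. Of the 48 interneurons with a Cort UMI 34 also had an Sst UMI, as did 74 of 94 with Reln, 37 of 41 with Nr2f2, 55 of 72 with Elfn1, 25 of 37 with Calb1 and 8 of 8 with Crhbp. The share of all interneurons with an Sst UMI was 43.6%. For Npy it was 50 of 85 and for Nxph2 17 of 52, and for Tac1 4 of 15. Of the 8 cells with Nkx2-1, 7 had 0 Sst UMIs. Cells with an Sst UMI were deeper, and the part of depth in these counts was not tested.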

How the data were processed

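The data were 1 sc-RNA Seq library of WT P0 cortex. The authors deposited a table of raw counts, in which each value is the number of UMIs of a gene in a cell barcode, and a table of totals per barcode. The submitters' processing notes name STAR, Cell Ranger, Seurat and the mm9 build. The annotation, the use of strand and how barcodes were called as cells are not given in the sources used here. The total and the number of genes recomputed from the counts equalled the deposited totals for 11062 of 11062 barcodes.

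Barcodes with at least 1000 genes were grouped by the rule given in the text, and counts were summed over each group with mitochondrial genes left out. With 1 library there was no replicate, so no test was run and no p-value is given. Genes with a mean of at least 20 CPM in the groups compared were called apart where the ratio, with 10 CPM added, was at least 2-fold. Shares were also computed after each barcode had been thinned to 2000 UMIs without replacement. The 20 genes furthest above and the 10 furthest below other Gad cells, the 10 furthest above and the 10 furthest below in the cells with 5 or more Sst UMIs, and genes of 25 lists (307 symbols) were named. Some genes that met this rule are not reported here, though counts and list medians include them. A fold against a group at 0 was computed from 3 counts over that group. The members and lists were chosen with earlier results of these data known. No doublet caller was run. Barcodes with Neurod2 or Neurod6 UMIs, or with high totals, were left out as alternatives instead.

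Gene overlaps were read from GENCODE M21 by gene name, and 37 of 49 named genes overlapped another gene, whose reads could be shared. Promoter windows came from RefSeq on GRCm38.p6, matched by symbol, for 3 of the 4 markers and 13 of the 20 leading genes. The build of the counts differs, so no coordinates were joined to them. Scripts used python 3.11.15, numpy 2.4.6, scipy 1.17.1, pandas 2.3.3 and matplotlib 3.10.9, and were tested on simulated data.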

Additional observations from a re-analysis of the deposited data

How the results depend on the processing

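No paired analysis was possible because the cells come from a single library. The number of interneurons was 102 with at least 5 Gad1 and Gad2 UMIs and 111 with no Neurod2 or Neurod6 UMI, beside 227 as reported, and 242 with at least 500 genes, 198 with at least 2000 genes and 205 with a marker sum of at least 4. Requiring an Lhx6 UMI left 192, or 31.6% of the Gad1 and Gad2 barcodes. With at least 5 Gad UMIs, 337 genes were higher and 299 lower than in other Gad cells, 391 and 320 than in Adarb2-group cells, and 180 and 171 in the Sst comparison. With no Neurod UMI the counts were 530 and 434, 581 and 426, and 232 and 246, and 263 genes were lower than in Neurod cells. With at most 15576 UMIs per barcode, 351 genes were higher than in other Gad cells, 344 higher and 270 lower than in Adarb2-group cells, 214 lower than in Neurod cells and 122 lower in the Sst comparison. Means of per-barcode CPM gave 122 lower genes with Sst. With 1 CPM added, 250 genes were lower than in Adarb2-group cells, and 189 higher and 121 lower with Sst. A minimum of 50 CPM gave 111 and 90 against other Gad cells, 116 and 80 against Adarb2-group cells, 99 higher than in Neurod cells, and 56 and 32 with Sst. A minimum of 5 CPM gave 332, 268 and 117 lower genes against other Gad cells, against Adarb2-group cells and with Sst. Thinning to 2000 UMIs moved 43 of 46 shares of cells with a UMI. Of 650 log2 ratios of named genes over the alternatives, 572 held, 74 moved and 4 reversed. Settings that altered only the minimum CPM or the CPM added kept the same groups and levels. Part of the 572 therefore held by construction and is no separate support. The 4 were Pou3f1 (0.11, at least 5 Gad UMIs) and, without dividing cells among the others, Hist1h1b (0.41), Cenpf (0.34) and Top2a (1.35). Without those dividing cells 97 genes were lower. This last setting, the Lhx6 requirement and that of at least 5000 UMIs were chosen after seeing the data. Apart from these constructions (fewer cells, fewer genes), the cause was not tested. Genes with few UMIs were limited by depth.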
